A study of Mus musculus with 12 samples.

Results

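Gene expression after 24 h of riociguat was compared with that after 12 h of its solvent DMSO in cultured mouse liver cells that the labels call HSCs, taken here to mean hepatic stellate cells, which are pericytes of the liver sinusoid that store retinoids. The comparison takes the 3 RNA-seq libraries of the riociguat 24 h group and the 3 of the DMSO 12 h group, 6 of the 12 in the series, by the group given in their labels. All cells came fresh from wild-type mice, were seeded at 1000000 per well and cultured for 12 h before a medium change. Riociguat 24 h cultures had the compound from the medium change on, DMSO 12 h cultures had solvent from 12 h after it, and both were collected 24 h after the medium change. The arms therefore differ in the compound and in how long an addition had been present, and these cannot be told apart. No dose of riociguat is stated in the labels. No label says that the replicates came from separate animals or isolations, so the p-values reflect only how far these libraries spread, and that spread may be technical.

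Riociguat stimulates soluble guanylate cyclase, the nitric oxide receptor that makes cyclic GMP. Cyclic GMP activates protein kinase G, which relaxes smooth muscle and pericytes, and it also acts on phosphodiesterases that degrade cyclic AMP. Freshly isolated stellate cells on plastic turn into contractile, matrix-producing myofibroblasts, with smooth muscle actin as the usual marker, and signals from the actin cytoskeleton reach genes through the cofactors MRTF (with SRF) and YAP (with TEAD). Stellate cells also make ligands such as BMP9, BMP10 and hepatocyte growth factor that act on neighbouring liver cells.

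The 6 libraries held 16644098 to 23932969 estimated counts and gave 2.61% to 4.51% of them to mitochondrial genes. DMSO replicate 1 stood apart, with a chi-square per degree of freedom of 12.3 and 16.0 against DMSO replicates 2 and 3, which differed from each other by 4.08, and 2566 genes were called without it against 2141 with it. The stellate identity markers summed to 4360.4 to 4466 CPM in DMSO and 4616 to 4788 CPM with riociguat. Among the markers that define stellate cells, Pdgfra, Pdgfrb, Des, Reln and Hand2 were all expressed, whereas Gfap lay at 0.431, 1.31 and 0.581 CPM in DMSO. Other liver cells contributed RNA too: in DMSO the 18 hepatocyte markers summed to 1820.1 to 1906 CPM, the 15 endothelial markers to 1251 to 1342 CPM and the 14 macrophage markers tested to 171 to 183 CPM, while the 6 lymphocyte markers tested summed to 3.96 to 5.57 CPM. Because these are bulk samples, fewer cells of a type and less RNA per cell cannot be told apart.

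After 24 h of riociguat, 24 of 30 genes of the actin cytoskeleton and focal adhesions, 14 of 22 of the YAP and TEAD pathway and 9 of 21 of the contractile apparatus were lower than in DMSO. Among the leading genes Il11, Spp1, Gdf10 and Cck were higher, and Acta2, Ccn4, Thbs1 and Bmp10 were lower. Of 16036 genes tested, 952 rose and 1189 fell, which is 5.94% and 7.41% of all genes tested (edgeR's quasi-likelihood test over all 12 libraries, Benjamini-Hochberg adjusted p under 0.05). The counts on gene lists given below stand beside these shares, and some lie near them. The change was at least 1 on the log2 scale for 80 risen and 100 fallen genes. The median log2 fold change of all genes was -0.0065. Irrespective of the test, all 3 libraries of riociguat lay above all 3 of DMSO for 12.6% of genes and below for 15.7%, and 13.4% of genes were called in either direction. Levels are given as CPM, counts per 1000000 of a library's total over the genes tested, with that total scaled by the library's TMM normalisation factor. A change written as a value ± its standard error (SE) is a fitted log2 fold change between 3 and 3 libraries. Wherever a gene is said to have risen or fallen, its adjusted p was under 0.05 in edgeR. Leaving out 1 library moved the number of called genes from 2141 to 1395 without DMSO replicate 2, and 1092 of the 2141 were called in the same direction whichever of the 6 libraries was left out.

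**Figure D1:**
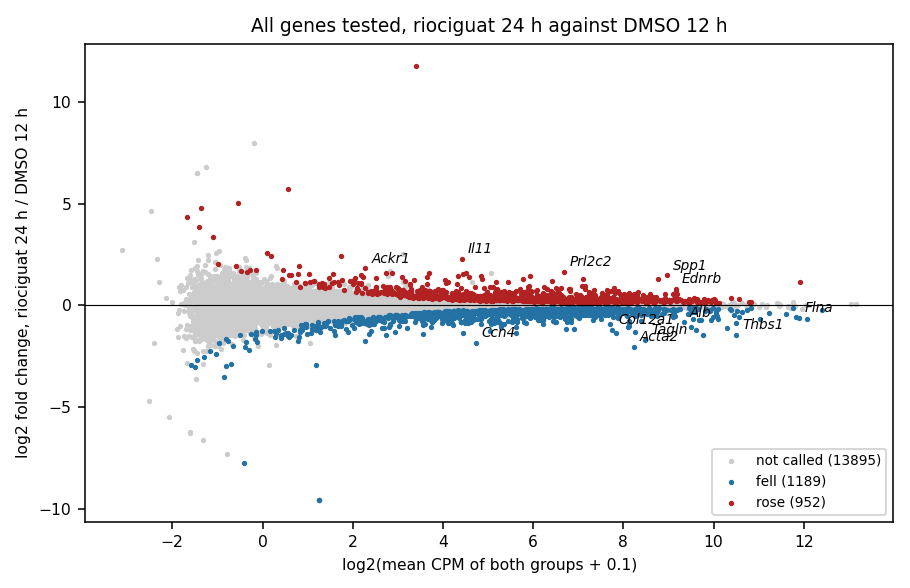
Log2 fold change (riociguat 24 h over DMSO 12 h) against the log2 of the mean CPM of both groups plus 0.1, 1 point per gene tested, with 952 risen genes in red, 1189 fallen genes in blue and the rest in grey. The labelled fallen genes Acta2, Tagln, Thbs1 and Ccn4 lie below most genes of similar abundance and Il11, Spp1 and Prl2c2 above them, and the points farthest from 0 are genes near 0 CPM in most libraries of 1 group.

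Genes of smooth muscle contraction were among the largest falls. Acta2, the gene of smooth muscle alpha-actin (ENSMUSG00000035783, chromosome 19, 34241090 to 34255590, minus strand, GRCm38), was at 418, 525 and 508 CPM in the DMSO libraries and 112, 109.9 and 125 CPM in the riociguat libraries. Every riociguat library lay below every DMSO library, and Acta2 fell by 2.06 ± 0.09 on the log2 scale (SE; edgeR adjusted p = 1.47e-10). Tagln, the actin-bundling protein transgelin, went from 473, 591 and 581 CPM in DMSO to 165, 144 and 192 CPM with riociguat and fell by 1.71 ± 0.10 on the log2 scale (SE; edgeR adjusted p = 3.02e-09). Lmod1, the smooth muscle actin nucleator leiomodin, went from 6.84, 8.97 and 6.10 CPM in DMSO to 2.45, 1.54 and 2.47 CPM with riociguat and fell by 1.75 ± 0.24. Myl9, the regulatory myosin light chain (ENSMUSG00000067818, chromosome 2, 156775420 to 156781658, plus strand), was at 61.3, 75.9 and 75.6 CPM in the DMSO libraries and 30.4, 24.6 and 26.4 CPM in the riociguat libraries. Its groups did not overlap, and it fell by 1.38 ± 0.10 on the log2 scale (SE; edgeR adjusted p = 4.47e-08). Myh11, the smooth muscle myosin heavy chain, fell by 0.93 ± 0.09, Ppp1r14a, an inhibitor of myosin phosphatase, by 0.54 ± 0.12 and Tpm2, a tropomyosin, by 0.42 ± 0.07.

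Of the 21 contractile genes tested, none rose and 9 fell, with a median log2 fold change of -0.23. The other 2 that fell did so by less: Mylk, the myosin light chain kinase, fell by 0.23 ± 0.06, which did not hold without DMSO replicate 3 or riociguat replicate 2 or 3 (adjusted p up to 0.0701), and Tpm1 by 0.18 ± 0.04, which did not hold without DMSO replicate 2 or 3 or riociguat replicate 2 (adjusted p up to 0.0685). The upstream regulators of contraction did not pass the test, with values of -0.05 ± 0.04 for the GTPase gene Rhoa, 0.12 ± 0.10 for the kinase gene Rock1 and -0.04 ± 0.05 for Rock2. Non-muscle Myh10 and Myl6, at -0.13 ± 0.05 and -0.15 ± 0.06, did not pass either. Cnn1, the smooth muscle calponin, was under 1 CPM in all 6 libraries.

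**Figure D2:**
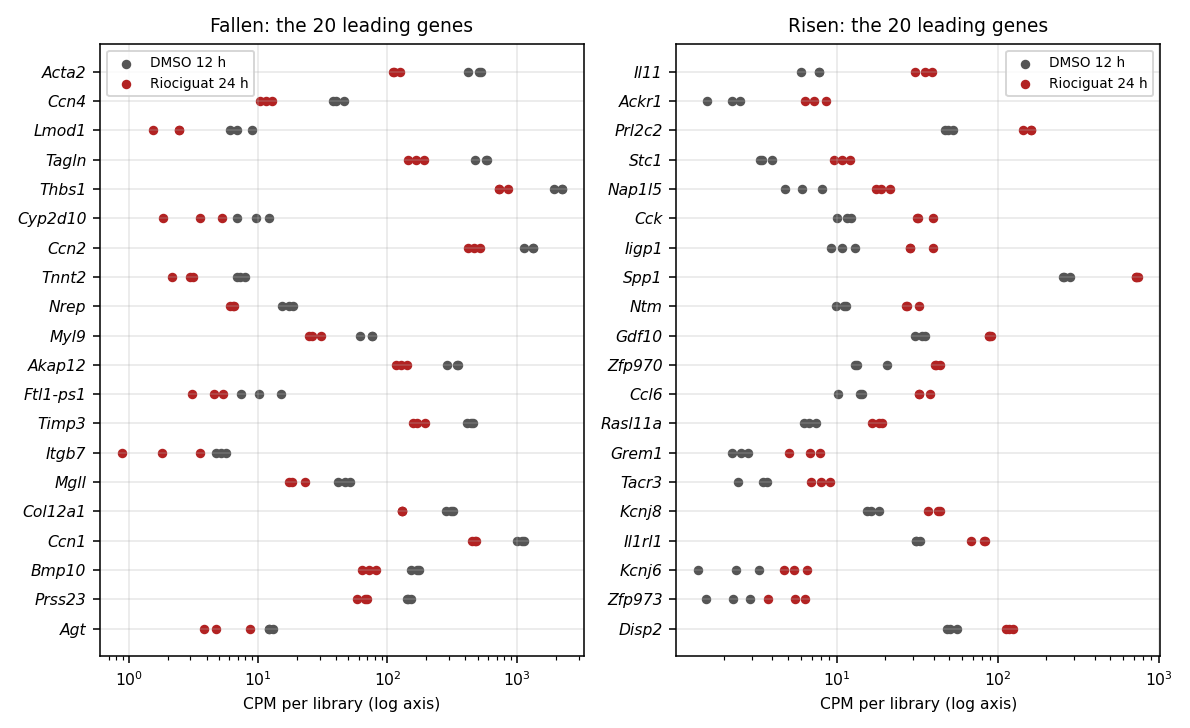
CPM on a log axis in each of the 3 DMSO 12 h (grey) and 3 riociguat 24 h (red) libraries for the 20 fallen (left) and 20 risen (right) genes with the largest fitted change. The groups do not overlap for any of these genes, which the choice of the genes required, and Acta2 went from 418 to 525 CPM down to 109.9 to 125 CPM.

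The actin cytoskeleton and focal adhesions, the structures that join actin bundles to the matrix, were lower in most of their genes. Of 30 genes tested, 24 fell and none rose, with a median log2 fold change of -0.42. Csrp1, a LIM protein of actin bundles, was at 346, 375 and 392 CPM in the DMSO libraries and 182, 166 and 184 CPM in the riociguat libraries. The groups did not overlap, and it fell by 1.06 ± 0.06 on the log2 scale (SE; edgeR adjusted p = 3.02e-09). Cnn2, a calponin of non-muscle cells, went from 349, 387 and 387 CPM in DMSO to 187, 169 and 198 CPM with riociguat and fell by 1.02 ± 0.06 on the log2 scale (SE; edgeR adjusted p = 1.1e-08). The actin cross-linkers Flna and Actn1 fell by 0.61 ± 0.04 and 0.69 ± 0.05, and Fermt2, the integrin activator kindlin-2, by 0.54 ± 0.04. For Flna the level was 4316, 4738 and 4758 CPM in the DMSO libraries and 3015, 3018 and 3036 CPM in the riociguat libraries, a wide gap relative to the spread within each group. Others that fell were both cytoplasmic actins, Actb and Actg1, and the adhesion proteins vinculin (Vcl), zyxin (Zyx), talin (Tln1) and Ilk.

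SRF acts on many of these genes through a short element, the CArG box. In the 250 bases before the start of each gene in RefSeq (build GRCm38.p6), an exact CArG box on either strand was present in 7 of the 26 promoters found for 21 of the 24 fallen actin and adhesion genes (26.9%), against 1.47% of all 32851 promoters of the table and 1.19% of those of the genes tested. The matches were in Actg1, Cnn2, Fermt2, Fhl1, both promoters of Fhl2, and Vcl. Over all tested members of this list, whether they fell or not, 7 of 35 promoters held a match. These are the same 7, so every match in the list was in a gene that fell. Because 24 of the 30 tested members fell, few were left for comparison. Whether the excess over all genes tested belongs to the fallen members or to the list as chosen was not tested. Over all tested contractile genes 2 of 21 promoters held a match. Of the 7 promoters found for the 9 fallen contractile genes, 1 held a match, that of Myl9. The sequences of 4 of these are given because their genes fell together, with the CArG box in capitals, read 5′ to 3′ along the gene's strand up to the base before its start.
Cnn2, chr10:79988350-79988599, plus strand: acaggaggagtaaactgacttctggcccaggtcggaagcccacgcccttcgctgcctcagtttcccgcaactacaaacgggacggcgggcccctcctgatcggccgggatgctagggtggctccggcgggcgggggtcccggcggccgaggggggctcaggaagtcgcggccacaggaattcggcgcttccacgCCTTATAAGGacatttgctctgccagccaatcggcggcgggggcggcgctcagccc
Actg1, chr11:120348496-120348745, minus strand: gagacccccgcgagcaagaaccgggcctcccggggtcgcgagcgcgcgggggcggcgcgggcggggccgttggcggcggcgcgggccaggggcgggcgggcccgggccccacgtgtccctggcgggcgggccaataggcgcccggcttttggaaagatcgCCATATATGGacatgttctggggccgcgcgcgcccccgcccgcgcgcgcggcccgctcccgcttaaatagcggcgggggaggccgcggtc
Vcl, chr14:20929148-20929397, plus strand: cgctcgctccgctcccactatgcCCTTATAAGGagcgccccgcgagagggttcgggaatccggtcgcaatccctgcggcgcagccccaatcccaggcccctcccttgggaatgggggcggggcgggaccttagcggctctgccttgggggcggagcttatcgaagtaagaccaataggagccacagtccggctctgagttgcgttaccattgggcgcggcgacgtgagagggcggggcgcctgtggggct
Myl9, chr2:156775214-156775463, plus strand: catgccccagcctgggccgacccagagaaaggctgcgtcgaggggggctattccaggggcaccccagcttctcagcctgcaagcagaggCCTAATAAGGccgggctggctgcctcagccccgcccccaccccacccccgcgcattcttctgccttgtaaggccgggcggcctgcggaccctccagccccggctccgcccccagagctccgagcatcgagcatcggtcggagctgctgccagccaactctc
The match ended 46 bases before the start in Cnn2, 80 in Actg1, 151 in Myl9 and 217 in Vcl. A match is a description of these letters and binding was not measured.

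Regulators of the same route were called in both directions. Srf itself went from 112, 131 and 129 CPM in DMSO to 81.7, 84.0 and 84.1 CPM with riociguat and fell by 0.57 ± 0.07 on the log2 scale (SE; edgeR adjusted p = 3.35e-05). Mical2, an enzyme that oxidises nuclear actin, fell by 0.56 ± 0.07, and the formin gene Diaph1 by 0.19 ± 0.05, which did not hold without DMSO replicate 3 or riociguat replicate 3 (adjusted p up to 0.07). The formin gene Diaph3 went the other way, from 7.94, 7.88 and 5.71 CPM in DMSO to 12.2, 12.5 and 11.6 CPM with riociguat, and rose by 0.75 ± 0.14. Mrtfa, the MRTF-A cofactor, had a value of -0.20 ± 0.08 and did not pass. In all, 1 of 9 genes of this group rose and 3 fell.

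Of 22 genes of the YAP and TEAD pathway, which include its responders and its own components, 14 fell and none rose, with a median log2 fold change of -0.38. The 8 that were not called, among them Yap1, Wwtr1 and Nf2, are components. Components are also among the 14 that fell, such as Tead1, Lats2, Amotl2 and Ptpn14. Ccn2, the matricellular growth factor CTGF (ENSMUSG00000019997, chromosome 10, 24595442 to 24598683, plus strand), was at 1141, 1332 and 1337 CPM in the DMSO libraries and 463, 420.4 and 518 CPM in the riociguat libraries. The groups were far apart, and it fell by 1.44 ± 0.09 on the log2 scale (SE; edgeR adjusted p = 1.1e-08). Ccn1, its relative CYR61, went from 1006, 1100.0 and 1142 CPM in DMSO to 477, 452 and 485 CPM with riociguat and fell by 1.20 ± 0.06 on the log2 scale (SE; edgeR adjusted p = 4.14e-10). Ankrd1, a nuclear ankyrin-repeat protein of stretched muscle, went from 917, 1008 and 1014 CPM in DMSO to 467, 426 and 526 CPM with riociguat and fell by 1.05 ± 0.07. Amotl2 and Ptpn14, which restrain YAP, fell by 0.73 ± 0.06 and 0.43 ± 0.05, and Crim1, a transmembrane BMP-binding protein, by 0.63 ± 0.07. The other 8 were Ajuba, Axl, Dlc1, Gadd45b, Lats2, Nuak2, Tead1 and Vgll3.

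TEAD proteins bind the letters CATTCC. These letters, on either strand, were found in 8 of the 11 promoters available for 10 of the 14 fallen genes (72.7%), against 12.6% of all promoters and 11.2% of those of the genes tested. The share was also high, 59.1% of 22 promoters, over all tested members of the list whether they fell or not. CATTCC was also in 4 of 7 promoters of the fallen contractile genes (57.1%) and 8 of 21 of all contractile genes tested (38.1%). For the fallen actin and adhesion genes it was in 3 of 26 promoters (11.5%). The fallen YAP and TEAD genes with a match were Ajuba, Amotl2, Ankrd1, Axl, Ccn1, Crim1, Ptpn14 and Vgll3. The promoters of 3 of the largest falls among them are given with CATTCC or its reverse complement in capitals, from the same source and in the same reading direction.
Ccn1, chr3:145649986-145650235, minus strand: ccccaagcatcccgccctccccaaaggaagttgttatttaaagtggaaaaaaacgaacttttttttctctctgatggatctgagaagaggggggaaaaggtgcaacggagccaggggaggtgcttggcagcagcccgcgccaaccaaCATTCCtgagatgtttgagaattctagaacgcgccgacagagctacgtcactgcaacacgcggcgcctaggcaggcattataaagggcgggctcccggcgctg
Ankrd1, chr19:36119845-36120094, minus strand: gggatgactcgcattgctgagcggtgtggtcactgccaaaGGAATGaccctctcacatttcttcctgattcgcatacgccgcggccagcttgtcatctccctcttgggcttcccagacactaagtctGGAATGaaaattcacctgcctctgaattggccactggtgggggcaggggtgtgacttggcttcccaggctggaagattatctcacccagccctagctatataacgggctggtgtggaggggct
Amotl2, chr9:102717554-102717803, plus strand: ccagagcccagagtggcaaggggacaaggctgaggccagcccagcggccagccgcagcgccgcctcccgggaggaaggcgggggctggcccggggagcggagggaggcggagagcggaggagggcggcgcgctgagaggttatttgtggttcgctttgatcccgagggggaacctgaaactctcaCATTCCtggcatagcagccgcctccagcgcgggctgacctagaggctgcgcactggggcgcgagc
Ankrd1 holds the letters at 2 places and the others at 1.

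Thbs1, thrombospondin-1, an activator of latent TGF-beta (ENSMUSG00000040152, chromosome 2, 118111876 to 118127133, plus strand), was at 1922, 2228 and 2229.8 CPM in the DMSO libraries and 731, 724 and 852 CPM in the riociguat libraries and fell by 1.47 ± 0.09 on the log2 scale (SE; edgeR adjusted p = 1.07e-08). Ccn4, the matricellular protein WISP1, went from 38.2, 39.9 and 46.2 CPM in DMSO to 11.6, 10.3 and 12.9 CPM with riociguat and fell by 1.83 ± 0.11 on the log2 scale (SE; edgeR adjusted p = 7.19e-09). Both groups were tight and apart. Thbs2, thrombospondin-2, rose by 0.50 ± 0.08. These were the 3 called among 7 further CCN and thrombospondin genes.

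TGF-beta genes moved in both directions, with 5 risen and 5 fallen of 21 and a median log2 fold change of -0.02. Tgfb2, a ligand, fell by 0.78 ± 0.12. The feedback inhibitors Smad7 and Pmepa1 fell by 0.42 ± 0.08 and 0.58 ± 0.08. On the receptor side Tgfbr3, the coreceptor betaglycan, rose by 0.31 ± 0.05, as did Tgfbr1, Tgfbr2 and the latent TGF-beta binding proteins Ltbp2 and Ltbp3. Without DMSO replicate 2 the number that rose was 3.

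Ligands of the BMP branch were also called in both directions. Gdf10, a BMP3-like ligand (ENSMUSG00000021943, chromosome 14, 33923587 to 33937983, plus strand), was at 35.4, 30.5 and 34.1 CPM in the DMSO libraries and 90.4, 89.0 and 88.3 CPM in the riociguat libraries. All riociguat libraries lay above all DMSO libraries, and it rose by 1.42 ± 0.09 on the log2 scale (SE; edgeR adjusted p = 1.09e-08). Bmp10, a circulating ligand of the receptor ALK1 (ENSMUSG00000030046, chromosome 6, 87428994 to 87437677, plus strand), went the opposite way, from 153, 169 and 176 CPM in DMSO to 72.1, 63.4 and 82.1 CPM with riociguat, and fell by 1.19 ± 0.09 on the log2 scale (SE; edgeR adjusted p = 6.67e-08). Gdf2, which encodes BMP9, the other ligand of that receptor, rose by 0.65 ± 0.06 to 73.9, 73.2 and 76.5 CPM. Bmp2 and Bmp5 rose by 0.78 ± 0.05 and 0.38 ± 0.06, and Bmp6, which induces hepcidin in hepatocytes, fell by 0.47 ± 0.07. Of 15 genes on the list of BMP and GDF ligands 5 rose and 6 fell. These counts include the activin subunit genes Inhbb, which rose, and Inhba, which fell, and the list also holds Inhbe and the procollagen protease gene Bmp1, neither of them called. Bmp2 is also on the endothelial marker list, whose values are given further on.

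Among BMP receptors, antagonists and targets, 6 of 27 rose and 2 fell, and 3 rose without DMSO replicate 2. Grem1, the secreted BMP antagonist gremlin, went from 2.54, 2.23 and 2.81 CPM in DMSO to 7.93, 5.04 and 6.83 CPM with riociguat and rose by 1.39 ± 0.22. The receptor gene Bmpr1a rose by 0.37 ± 0.08. The BMP target genes Id1 and Id3 rose by 0.28 ± 0.07 and 0.24 ± 0.07. The first did not hold without DMSO replicate 2 (adjusted p = 0.0552) and the second did not hold without DMSO replicate 3 or riociguat replicate 2 (adjusted p up to 0.0599). Fstl3 and Fstl1, follistatin-like binders of TGF-beta family ligands, fell by 0.70 ± 0.09 and 0.41 ± 0.04.

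Matrix genes did not move as a block. Among 27 collagen chains 4 rose and 9 fell, with a median log2 fold change of -0.10. Col12a1, a collagen that decorates fibrils (ENSMUSG00000032332, chromosome 9, 79598991 to 79718831, minus strand), was at 282, 320.4 and 309 CPM in the DMSO libraries and 129, 129.5 and 129 CPM in the riociguat libraries. The riociguat libraries differed by less than 2 CPM from each other, and the gene fell by 1.23 ± 0.05 on the log2 scale (SE; edgeR adjusted p = 4.15e-11). Col1a1, the main fibrillar chain, went from 352, 361 and 361 CPM in DMSO to 174, 211 and 206 CPM with riociguat and fell by 0.86 ± 0.07 on the log2 scale (SE; edgeR adjusted p = 2.83e-07), while its partner Col1a2 went from 209.8, 239 and 234 CPM in DMSO to 174, 188 and 214 CPM with riociguat, with overlapping groups, and fell by 0.25 ± 0.07, which did not hold without DMSO replicate 2 or 3 or riociguat replicate 1 or 2 (adjusted p up to 0.131). The basement membrane chains Col4a1 and Col4a2 fell by 0.69 ± 0.05 and 0.71 ± 0.04, and the microfibril chain Col6a3 by 0.43 ± 0.04. Col3a1, the fibrillar chain of reticular fibres, went from 324, 313 and 309.9 CPM in DMSO to 468, 481 and 419 CPM with riociguat and rose by 0.53 ± 0.06. The other risen chains were Col6a1, Col6a2 and Col18a1.

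Of 23 collagen-processing genes 2 rose and 7 fell, and 4 fell without riociguat replicate 2. The cross-linking oxidases Lox, Loxl2 and Loxl4 fell by 0.44 ± 0.08, 0.33 ± 0.04 and 0.24 ± 0.05, and Pcolce, an enhancer of procollagen cleavage, by 0.26 ± 0.06. The prolyl hydroxylase gene P4ha2 fell by 0.31 ± 0.08, which did not hold without DMSO replicate 3 or riociguat replicate 2 or 3 (adjusted p up to 0.0978).

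Glycoproteins and proteoglycans included one of the leading risen genes. Spp1, which encodes osteopontin (ENSMUSG00000029304, chromosome 5, 104435118 to 104441050, plus strand), was at 282, 259 and 257 CPM in the DMSO libraries and 727, 747 and 721 CPM in the riociguat libraries. Its groups lay far apart with little spread, and it rose by 1.46 ± 0.06 on the log2 scale (SE; edgeR adjusted p = 4.15e-11). Lum, the fibril-binding proteoglycan lumican, went from 48.4, 37.6 and 36.0 CPM in DMSO to 89.4, 74.9 and 73.1 CPM with riociguat and rose by 0.96 ± 0.10, and Emilin1 and Vcan (versican) rose by 0.35 ± 0.04 and 0.34 ± 0.06. Tnc, tenascin-C, went from 977, 1033 and 1038 CPM in DMSO to 588, 592 and 662 CPM with riociguat and fell by 0.73 ± 0.06, and Postn, periostin, fell by 0.76 ± 0.10. Over the 36 genes 8 rose and 6 fell, with a median log2 fold change of 0.01.

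Metalloproteinase inhibitors split. Timp3, which is bound to the matrix (ENSMUSG00000020044, chromosome 10, 86300372 to 86349506, plus strand), went from 411, 455 and 446 CPM in DMSO to 169.6, 158 and 196 CPM with riociguat and fell by 1.32 ± 0.07 on the log2 scale (SE; edgeR adjusted p = 3.43e-09). Timp2 fell by 0.46 ± 0.04. Timp1, the soluble inhibitor raised in fibrosis, was at 156, 159.8 and 165 CPM in the DMSO libraries and 258, 239.8 and 289 CPM in the riociguat libraries. The groups did not overlap in the upward direction, and it rose by 0.71 ± 0.07 on the log2 scale (SE; edgeR adjusted p = 1.24e-06). Mmp3, the protease stromelysin-1, went from 454, 441 and 445 CPM in DMSO to 649.9, 658 and 638 CPM with riociguat and rose by 0.54 ± 0.04. Adam12 and Serping1, a membrane protease and the C1 inhibitor, fell by 0.37 ± 0.06 and 0.36 ± 0.06. In all 5 of 28 proteases and inhibitors rose and 8 fell.

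Of 17 integrin subunits 1 rose and 4 fell, against 5.94% and 7.41% of all genes tested. This list does not hold Itgb7, a fallen gene named further on. Itga2, a collagen receptor chain, rose by 0.68 ± 0.07, and Itga5, the fibronectin receptor chain, fell by 0.33 ± 0.05. The falls of Itga3, Itga7 and Itgb5, by 0.19 ± 0.05, 0.48 ± 0.14 and 0.19 ± 0.05, were less firm. That of Itga3 did not hold without DMSO replicate 2 or 3 or riociguat replicate 1 or 2 (adjusted p up to 0.0948). That of Itga7 did not hold without DMSO replicate 1, 2 or 3 or riociguat replicate 2 or 3 and when the 6 libraries were fitted alone (adjusted p up to 0.157), and that of Itgb5 did not hold without DMSO replicate 2 or 3 or riociguat replicate 3 (adjusted p up to 0.137). The number that fell was 1 without DMSO replicate 2 or 3 and 2 without riociguat replicate 2 or 3.

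Stellate identity genes more often rose than fell. Of 28 tested 8 rose and 3 fell, against 5.94% and 7.41% of all genes, with a median log2 fold change of -0.02. Ntm, the adhesion protein neurotrimin (ENSMUSG00000059974, chromosome 9, 28994750 to 29963141, minus strand), went from 11.1, 11.4 and 9.88 CPM in DMSO to 32.7, 27.1 and 27.4 CPM with riociguat and rose by 1.43 ± 0.10 on the log2 scale (SE; edgeR adjusted p = 5.49e-08). Hgf, hepatocyte growth factor, was at 128, 122 and 114 CPM in the DMSO libraries and 223, 187 and 202 CPM in the riociguat libraries. Its groups did not overlap, and it rose by 0.75 ± 0.06 on the log2 scale (SE; edgeR adjusted p = 4.25e-07). Steap4, a metalloreductase, went from 106, 86.1 and 87.0 CPM in DMSO to 193, 185 and 157 CPM with riociguat and rose by 0.94 ± 0.09. Reln (reelin), Rgs5, a pericyte regulator of G-protein signalling, and Pdgfra rose by 0.29 ± 0.04, 0.31 ± 0.07 and 0.22 ± 0.04. Hand2, a transcription factor, rose by 0.42 ± 0.10, which did not hold without DMSO replicate 3 (adjusted p = 0.05), and Sod3, extracellular superoxide dismutase, by 0.32 ± 0.09, which did not hold without DMSO replicate 1 or 2 or riociguat replicate 1 (adjusted p up to 0.111).

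The 3 identity genes that fell were Nes (nestin) and Des (desmin), both intermediate filaments, and Pdgfrb, the PDGF receptor beta. Desmin went from 173, 208 and 191 CPM in DMSO to 131, 129 and 138 CPM with riociguat and fell by 0.52 ± 0.06 on the log2 scale (SE; edgeR adjusted p = 8.83e-06). Nestin fell by 0.54 ± 0.05 and Pdgfrb by 0.35 ± 0.06. The transcription factor genes Gata4, Gata6, Lhx2, Tcf21, Foxf1, Tbx20 and Nr1h4 did not pass, with log2 fold changes between -0.20 (Nr1h4) and 0.16 (Lhx2). Cygb, the stellate globin, had a value of -0.05 ± 0.08.

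Of 21 genes of retinoid storage and metabolism, which include enzymes of retinoic acid turnover and retinoid receptors, 5 rose and 2 fell, with 3 risen without riociguat replicate 3. No receptor gene on the list was called. Lrat, the enzyme that makes stored retinyl esters, was at 6.12, 5.60 and 2.71 CPM in the DMSO libraries and 8.93, 9.31 and 9.00 CPM in the riociguat libraries. All riociguat libraries were higher, DMSO replicate 3 was lowest, and the gene rose by 0.91 ± 0.21 on the log2 scale (SE; edgeR adjusted p = 0.00704). Rdh10, which oxidises retinol, and Cyp26b1, which degrades retinoic acid, rose by 0.43 ± 0.08 and 0.62 ± 0.13. Aldh1a1, a retinal dehydrogenase, fell by 0.39 ± 0.05. Rbp4, the plasma retinol carrier made by hepatocytes, fell by 0.68 ± 0.12 as the hepatocyte markers below did, and their part in this was not tested. Lipid droplet and PPAR-gamma genes were mostly not called, with 2 of 26 risen and 1 fallen. Plin2, the droplet coat protein, rose by 0.18 ± 0.04, Cebpd, an adipogenic transcription factor, rose by 0.64 ± 0.13, and Pnpla2, adipose triglyceride lipase, fell by 0.33 ± 0.05. Pparg was at -0.06 ± 0.17 and did not pass.

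Genes of the pathway that riociguat acts on were called in both directions. Of 24 cGMP genes 4 rose and 5 fell, with a median log2 fold change of -0.09. Gucy1a1, the alpha subunit of soluble guanylate cyclase, was at 78.9, 69.1 and 60.8 CPM in the DMSO libraries and 93.8, 87.6 and 85.7 CPM in the riociguat libraries. The libraries of the groups did not overlap, and it rose by 0.36 ± 0.08 on the log2 scale (SE; edgeR adjusted p = 0.00666). Gucy1b1, the beta subunit, had a value of 0.06 ± 0.06 and did not pass. The kinase genes Prkg1 and Prkg2 rose by 0.33 ± 0.10 and 0.58 ± 0.16. The rise of Prkg1 did not hold without DMSO replicate 1 or 2 or riociguat replicate 1 or 3 (adjusted p up to 0.122), and that of Prkg2 did not hold without DMSO replicate 1 or 2 or riociguat replicate 1 or 3 (adjusted p up to 0.109). Leaving out any 1 of these 4 libraries left 2 risen genes.

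Mrvi1 (also called Irag1), the protein kinase G substrate that restrains calcium release, went from 50.1, 55.6 and 54.0 CPM in DMSO to 24.0, 23.8 and 27.3 CPM with riociguat and fell by 1.09 ± 0.08 on the log2 scale (SE; edgeR adjusted p = 4.26e-08). Vasp, the actin regulator that the kinase phosphorylates, fell by 0.30 ± 0.06. Npr3, the clearance receptor of natriuretic peptides, fell by 0.57 ± 0.08. The cGMP-degrading enzymes split: Pde1a rose by 0.63 ± 0.07, Pde2a fell by 0.46 ± 0.09, and Pde5a was at 0.14 ± 0.13, which did not pass. Nos3, endothelial nitric oxide synthase, fell by 0.38 ± 0.11, which did not hold without DMSO replicate 1 or 2 or riociguat replicate 1 and when the 6 libraries were fitted alone (adjusted p up to 0.175).

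Genes of the cyclic AMP arm rose in 6 of 23 cases and fell in 2, and 0 to 1 fell under every alternative, whichever library was left out. Pde7b, a cAMP phosphodiesterase (ENSMUSG00000019990, chromosome 10, 20398004 to 20725078, minus strand), was at 24.8, 21.9 and 21.2 CPM in the DMSO libraries and 51.3, 48.9 and 47.7 CPM in the riociguat libraries. It was higher in all riociguat libraries and rose by 1.12 ± 0.08 on the log2 scale (SE; edgeR adjusted p = 2.96e-08). Pde4b, another, rose by 0.68 ± 0.05, Crem, the cAMP-responsive repressor, by 0.88 ± 0.12, and the regulatory subunits of protein kinase A, Prkar2b and Prkar1a, by 0.56 ± 0.05 and 0.26 ± 0.04. Nr4a1, a nuclear receptor induced by cAMP and by growth factors, fell by 0.46 ± 0.12, which did not hold without DMSO replicate 2 or riociguat replicate 2 (adjusted p up to 0.0677). The CREB core letters TGACG, searched on both strands, were in 5 of 21 promoters of the 20 leading risen genes (23.8%), against 24.8% of promoters of all genes tested. Over all tested members of the cyclic AMP list they were in 14 of 37 promoters (37.8%), of 11 of 18 genes. Counted by gene, the share was 29.0% of the genes tested for which a promoter was found. For the members of the list that rose they were in 4 of 14 promoters (28.6%), of 2 of 5 genes.

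Vasoactive ligands and receptors were often called, with 10 of 26 risen and 5 fallen. Cck, the peptide hormone cholecystokinin (ENSMUSG00000032532, chromosome 9, 121489824 to 121495694, minus strand), went from 11.7, 12.3 and 10.1 CPM in DMSO to 31.9, 31.5 and 39.6 CPM with riociguat and rose by 1.60 ± 0.11 on the log2 scale (SE; edgeR adjusted p = 2.45e-08). Ednrb, endothelin receptor B, was at 459, 402 and 394 CPM in the DMSO libraries and 802, 718 and 685 CPM in the riociguat libraries, with no overlap, and rose by 0.81 ± 0.06 on the log2 scale (SE; edgeR adjusted p = 1.28e-07). S1pr3, a receptor of sphingosine-1-phosphate that couples to contraction, went from 157, 159.7 and 159 CPM in DMSO to 285, 293 and 280.3 CPM with riociguat and rose by 0.85 ± 0.04 on the log2 scale (SE; edgeR adjusted p = 1.58e-10). Its relative S1pr1 fell by 0.40 ± 0.06. The prostaglandin E2 receptor gene Ptger2 rose by 0.64 ± 0.08 and the vasodilator peptide gene Adm (adrenomedullin) fell by 0.55 ± 0.06. Agt, angiotensinogen, an hepatocyte product, fell by 1.14 ± 0.21, and the hepatocyte markers fell too, without a test of their part in it. Endothelin-1 (Edn1) had a value of -0.29 ± 0.10 and did not pass.

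The gp130 cytokine system was raised at several levels. Il11, a cytokine of this family and the largest rise among the genes named by rule (ENSMUSG00000004371, chromosome 7, 4772373 to 4782859, minus strand), was at 6.03, 7.79 and 7.75 CPM in the DMSO libraries and 39.4, 35.5 and 30.9 CPM in the riociguat libraries. The lowest riociguat library was well above the highest DMSO library, and it rose by 2.29 ± 0.11 on the log2 scale (SE; edgeR adjusted p = 4.14e-10). Il6 went from 2.58, 1.05 and 0.968 CPM in DMSO to 3.85, 3.26 and 4.35 CPM with riociguat and rose by 1.32 ± 0.30. The receptor chains Osmr and Lifr rose by 0.53 ± 0.06 and 0.39 ± 0.06, and Il6st, the shared chain gp130, by 0.25 ± 0.04. Downstream, the transcription factor gene Stat3 rose by 0.43 ± 0.04 and its feedback inhibitor Socs3 went from 44.9, 41.5 and 41.8 CPM in DMSO to 64.1, 70.5 and 69.3 CPM with riociguat and rose by 0.67 ± 0.07. In all 7 of 14 genes rose and 1, Il6ra, fell, with a median log2 fold change of 0.32.

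Chemokines and interleukins rose in 8 of 26 cases and fell in 2. Il1rl1, the IL-33 receptor ST2 (ENSMUSG00000026069, chromosome 1, 40429570 to 40465415, plus strand), was at 31.0, 31.3 and 33.0 CPM in the DMSO libraries and 83.4, 68.2 and 82.1 CPM in the riociguat libraries. The groups did not overlap, and it rose by 1.30 ± 0.09 on the log2 scale (SE; edgeR adjusted p = 4.26e-08). Its ligand gene Il33 went from 13.3, 13.7 and 11.2 CPM in DMSO to 30.3, 29.1 and 21.0 CPM with riociguat and rose by 1.07 ± 0.13. The chemokine genes Ccl6 and Cxcl14 rose by 1.41 ± 0.16 and 0.69 ± 0.06, and the IL-1 receptor gene Il1r1 by 0.45 ± 0.05. Cxcl12, the chemokine that retains blood progenitors, went the other way, from 1767, 1904 and 1957 CPM in DMSO to 941, 956 and 1195 CPM with riociguat, and fell by 0.86 ± 0.07 on the log2 scale (SE; edgeR adjusted p = 3.06e-07). Ccl2 was at -0.13 ± 0.09 and did not pass.

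Genes of NF-kB and its feedback were split, 3 risen and 3 fallen of 17. Tnfaip3, the deubiquitinase A20, fell by 0.51 ± 0.05, Ptgs2, cyclooxygenase-2, fell by 0.39 ± 0.08, and Bcl3 and Vcam1 rose by 0.45 ± 0.10 and 0.27 ± 0.04. Calls for the subunit gene Rela and the inhibitor gene Nfkbia, at -0.15 ± 0.05 and 0.20 ± 0.06, were fragile. The former did not hold without DMSO replicate 1, 2 or 3 or riociguat replicate 1, 2 or 3 and with RLE factors, without a low-count filter, in DESeq2, when the 6 libraries were fitted alone, with the replicate block (adjusted p up to 0.222). The latter did not hold without DMSO replicate 2 or 3 or riociguat replicate 1 or 2 (adjusted p up to 0.148). Of 26 interferon-stimulated genes only Irf1 passed, with a rise of 0.31 ± 0.07, while the list had a median log2 fold change of 0.20, and 5 rose when no low-count filter was used.

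Genes of the aryl hydrocarbon receptor, a sensor of xenobiotics, and its targets were higher in 6 of 12 cases, the receptor gene Ahr included, and lower in 1, with a median log2 fold change of 0.18. Cyp1a1, the cytochrome most used as its readout (ENSMUSG00000032315, chromosome 9, 57687928 to 57703824, plus strand), was at 399.8, 455 and 461 CPM in the DMSO libraries and 701, 692 and 729 CPM in the riociguat libraries. The riociguat libraries were all higher, and it rose by 0.69 ± 0.05 on the log2 scale (SE; edgeR adjusted p = 1.28e-07). Ahrr, the receptor's repressor, rose by 0.73 ± 0.13, Tiparp, an ADP-ribosyltransferase that also represses it, by 0.43 ± 0.07, Cyp1b1 by 0.42 ± 0.07 and Nqo1, a quinone reductase, by 0.33 ± 0.04. Ugt1a7c, a glucuronosyltransferase, fell by 0.45 ± 0.10. The core GCGTG of the receptor's element was in 4 of the 5 promoters found for the 6 risen genes, against 28.2% of all promoters and 42.2% of those of the genes tested. Over all tested members of the list the share was 5 of 9 promoters (55.6%). The promoters of Cyp1a1 and Ahrr are given with these letters in capitals.
Cyp1a1, chr9:57697363-57697612, plus strand: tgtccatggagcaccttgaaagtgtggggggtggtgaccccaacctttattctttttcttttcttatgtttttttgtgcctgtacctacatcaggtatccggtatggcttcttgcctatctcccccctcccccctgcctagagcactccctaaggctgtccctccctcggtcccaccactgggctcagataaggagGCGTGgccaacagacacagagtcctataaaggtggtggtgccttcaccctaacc
Ahrr, chr13:74292332-74292581, minus strand: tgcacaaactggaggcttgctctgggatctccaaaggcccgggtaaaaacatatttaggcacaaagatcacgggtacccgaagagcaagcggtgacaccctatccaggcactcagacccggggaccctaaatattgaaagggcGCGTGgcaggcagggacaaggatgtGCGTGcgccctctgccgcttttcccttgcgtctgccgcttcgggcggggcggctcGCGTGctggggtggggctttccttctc
Cyp1a1 has the letters at 1 place in this window and Ahrr at 3, and the other promoters with a match were those of Cyp1b1 and Tiparp.

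In the NRF2 group, genes of glutathione and NADPH supply, 10 of 27 rose and 5 fell, and 3 fell without DMSO replicate 2 or 3. The transcription factor gene Nfe2l2 went from 339, 359 and 336 CPM in DMSO to 472, 455 and 449 CPM with riociguat and rose by 0.41 ± 0.04. Gclc, the catalytic subunit that starts glutathione synthesis, rose by 0.47 ± 0.05, Gstp1 by 0.35 ± 0.04 and Srxn1, sulfiredoxin, by 0.29 ± 0.05. Gsta1, a glutathione transferase abundant in hepatocytes, fell by 0.72 ± 0.07 and Osgin1, an oxidative stress-induced gene, by 0.31 ± 0.05. Among 19 heme and iron genes 2 rose and 4 fell, and the number that rose was 1 without DMSO replicate 3 or riociguat replicate 1, 4 without DMSO replicate 1 and 5 without a low-count filter. Hpx (hemopexin) and Trf (transferrin), both hepatocyte plasma proteins, fell by 0.90 ± 0.11 and 0.66 ± 0.09, and the ferritin light chain gene Ftl1 by 0.23 ± 0.05. The hepatocyte markers fell alongside Gsta1, Hpx and Trf, and their part was not tested. Slc39a14, a metal importer, and Slc40a1, the iron exporter ferroportin, rose by 0.19 ± 0.04 and 0.18 ± 0.05, of which the latter did not hold without DMSO replicate 3 or riociguat replicate 1 (adjusted p up to 0.0846). Hmox1, heme oxygenase, had a value of -0.15 ± 0.05 (edgeR adjusted p = 0.0423), a call that did not hold without DMSO replicate 2 or 3 or riociguat replicate 1, 2 or 3 and with RLE factors, when the 6 libraries were fitted alone, with the replicate block (adjusted p up to 0.235).

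Immediate early genes, which report on recent growth factor and stress signalling, fell in 15 of 23 cases and rose in 1, with a median log2 fold change of -0.27. Egr1 was at 87.8, 92.1 and 99.5 CPM in the DMSO libraries and 56.0, 55.5 and 56.3 CPM in the riociguat libraries. The riociguat libraries were nearly identical and all lower, and Egr1 fell by 0.73 ± 0.05 on the log2 scale (SE; edgeR adjusted p = 6.67e-08). The Kruppel-like factor genes Klf2, Klf4 and Klf6 fell by 0.74 ± 0.11, 0.53 ± 0.06 and 0.52 ± 0.04, and Jun by 0.25 ± 0.05. Ier3, an anti-apoptotic member, rose by 0.57 ± 0.05. Fos was at 0.02 ± 0.08 and did not pass. Of 19 genes of ERK feedback, which include the ERK-induced genes Etv4, Etv5 and Phlda1 beside inhibitors, 3 rose and 6 fell, with 3 fallen without DMSO replicate 3. The phosphatase genes Dusp10, Dusp1 and Dusp5 fell by 0.53 ± 0.07, 0.37 ± 0.06 and 0.31 ± 0.08, and that of Dusp5 did not hold without DMSO replicate 3 or riociguat replicate 1 (adjusted p up to 0.0869). Spry1, a receptor kinase antagonist, fell by 0.50 ± 0.11, and its relatives Spred1 and Spred3 rose by 0.59 ± 0.09 and 0.46 ± 0.09.

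Genes of the p53 pathway fell in 12 of 23 cases and none rose, with a median log2 fold change of -0.18. Plk2, a stress-induced kinase, went from 325, 364 and 364 CPM in DMSO to 212, 189 and 214 CPM with riociguat and fell by 0.77 ± 0.06 on the log2 scale (SE; edgeR adjusted p = 6.44e-08). Bbc3, the death protein PUMA, fell by 0.59 ± 0.10, Btg2 by 0.39 ± 0.06, Phlda3, an AKT inhibitor, by 0.37 ± 0.06, Mdm2, the ubiquitin ligase of p53, by 0.35 ± 0.04 and Cdkn1a, the cell cycle inhibitor p21, by 0.34 ± 0.05.

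Among cell cycle genes, most calls were in mitosis. Of 27 genes of mitosis and G2/M 13 rose and none fell, with a median log2 fold change of 0.47, and the numbers were 8 without riociguat replicate 1 and 10 without DMSO replicate 1 or 3. Mki67, the proliferation antigen Ki-67, was at 45.5, 43.9 and 47.6 CPM in the DMSO libraries and 69.6, 67.2 and 59.2 CPM in the riociguat libraries. All riociguat libraries were above all DMSO libraries, riociguat replicate 1 highest, and it rose by 0.52 ± 0.08 on the log2 scale (SE; edgeR adjusted p = 0.000307). The mitotic kinase gene Plk1 rose by 0.69 ± 0.15, the centromere motor gene Cenpe by 0.62 ± 0.14, the spindle factor gene Tpx2 by 0.49 ± 0.10 and the topoisomerase gene Top2a by 0.49 ± 0.09. Ccna2, cyclin A2, rose by 0.41 ± 0.10, which did not hold without DMSO replicate 2 (adjusted p = 0.0535). Of 28 genes of DNA replication and S phase 0 were called at adjusted p under 0.05 in edgeR, with a median log2 fold change of 0.07 (DESeq2 called none, 3 had an unadjusted p under 0.05, and 1 rose without DMSO replicate 1). Rrm2, a subunit of ribonucleotide reductase, was at 0.08 ± 0.09. Among D cyclins and CDK inhibitors Ccnd2, Cdk6 and Myc fell by 0.40 ± 0.05, 0.44 ± 0.08 and 0.35 ± 0.05, Ccnd1 was at -0.15 ± 0.06 and did not pass, and 1 of 15 rose, Cdkn1b by 0.34 ± 0.08, which did not hold without DMSO replicate 2 or 3 (adjusted p up to 0.0747).

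**Figure D3:**
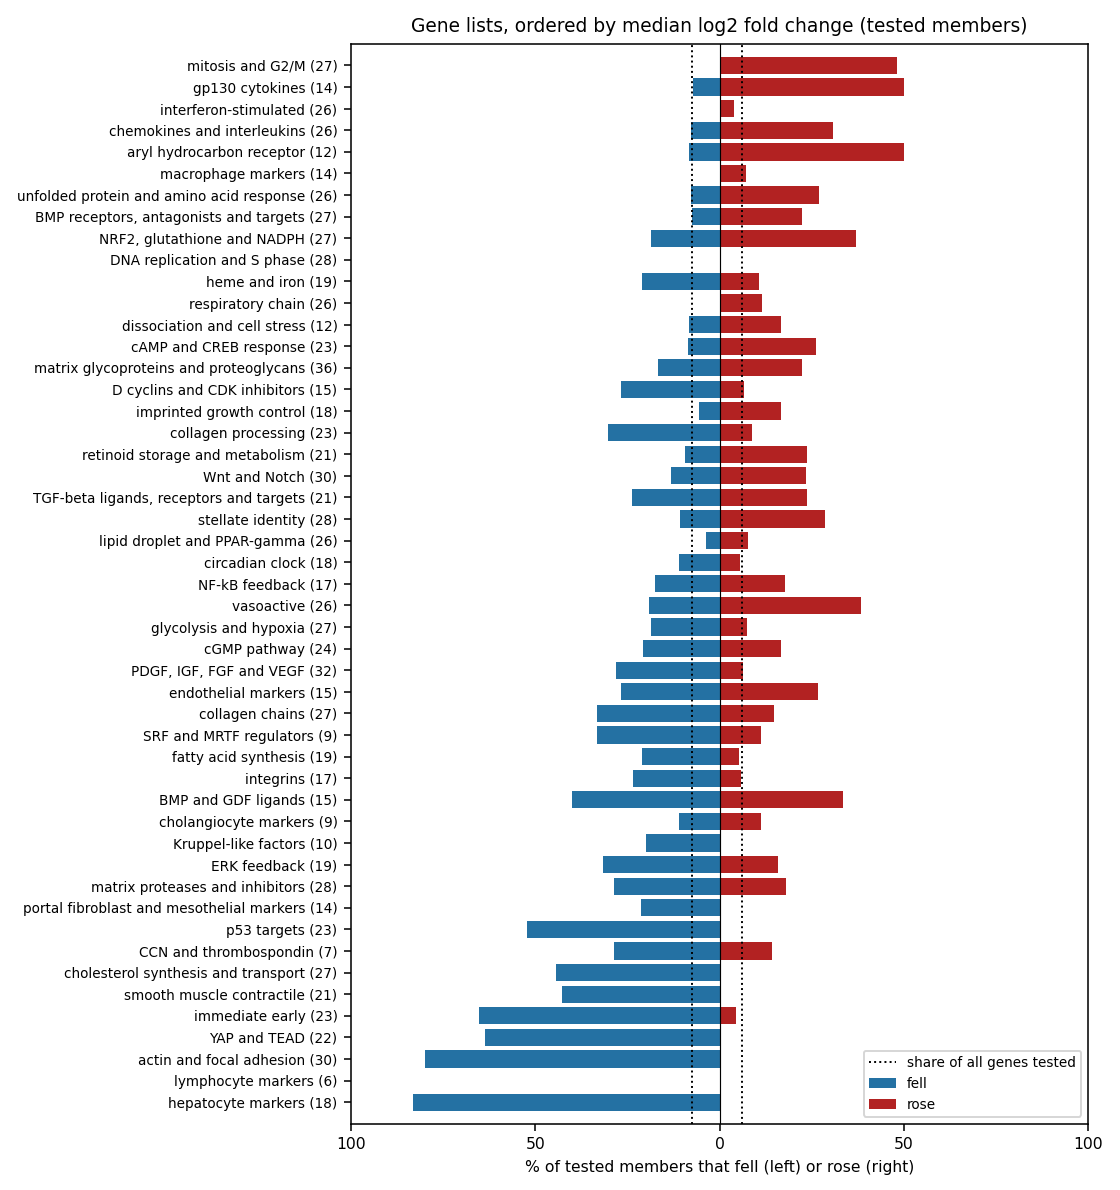
Share of the tested members of each of the 49 gene lists that fell (blue, left) or rose (red, right) with riociguat 24 h, with the number tested in parentheses and dotted lines at the shares of all genes tested, 7.41% and 5.94%. The lists are ordered by their median log2 fold change, with mitosis at the top and hepatocyte markers, lymphocyte markers and actin genes at the bottom.

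Cholesterol genes were lower in 12 of 27 cases and higher in none, with a median log2 fold change of -0.23, and 7 fell without riociguat replicate 3. Srebf2, the transcription factor of the pathway, went from 193, 191 and 196 CPM in DMSO to 166, 162 and 160.0 CPM with riociguat, with no overlap, and fell by 0.25 ± 0.04 on the log2 scale (SE; edgeR adjusted p = 0.000392). The calls for Insig1 and Stard4, at -0.32 ± 0.07 and -0.34 ± 0.08, depended on a single library: the former did not hold without riociguat replicate 3 (adjusted p = 0.0531) and the latter did not hold without riociguat replicate 3 (adjusted p = 0.0578). Of 19 fatty acid genes 1 rose and 4 fell. Fasn, fatty acid synthase, fell by 0.43 ± 0.05, Fads2, a desaturase, by 0.41 ± 0.08 and Thrsp, a lipogenic gene of hepatocytes and fat, by 1.19 ± 0.21. The hepatocyte markers, with a median log2 fold change of -0.78, fell alongside Thrsp and the cholesterol genes, and their part in these falls was not tested. Acsl4, which activates arachidonic acid, rose by 0.77 ± 0.10. Scd2, a desaturase, had a value of -0.14 ± 0.04, a call that did not hold without DMSO replicate 2 or 3 or riociguat replicate 1, 2 or 3 and with RLE factors, without a low-count filter, when the 6 libraries were fitted alone, with the replicate block (adjusted p up to 0.213).

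Most hepatocyte markers fell. Of 18 tested, 15 fell and none rose, with a median log2 fold change of -0.78, and the sum of their levels was 1820.1 to 1906 CPM in DMSO and 937 to 1272 CPM with riociguat. Alb, albumin, was at 852, 839 and 819 CPM in the DMSO libraries and 471, 539 and 389 CPM in the riociguat libraries. All riociguat libraries were lower, replicate 3 most, and it fell by 0.84 ± 0.09 on the log2 scale (SE; edgeR adjusted p = 7.19e-06). Ahsg, Cyp2e1, Serpina1a and Serpina3k fell by 0.86 ± 0.10, 0.81 ± 0.12, 0.87 ± 0.12 and 0.84 ± 0.11, although reads of the Serpina genes can be shared among near-identical copies. Cyp2d10, a hepatic cytochrome among the leading fallen genes, went from 9.71, 6.91 and 12.1 CPM in DMSO to 3.53, 5.28 and 1.83 CPM with riociguat and fell by 1.45 ± 0.27.

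Endothelial markers moved in both directions, 4 risen and 4 fallen of 15, and their sum was 1251 to 1342 CPM in DMSO and 1152 to 1197 CPM with riociguat. The junction genes Cdh5 and Pecam1 fell by 0.55 ± 0.05 and 0.40 ± 0.07 and the angiopoietin receptor gene Tek by 0.36 ± 0.07. Fcgr2b and Gpr182, both of liver sinusoids, rose by 0.44 ± 0.05 and 0.52 ± 0.11. Notch4, Klf2, Nos3, Pdgfb and Bmp6, which endothelial cells express, also fell, and the part of endothelial RNA in those values was not tested. Of 14 macrophage markers 1 rose, Lyz2 by 0.40 ± 0.09, and their sum was 184 to 207 CPM with riociguat. The defining Kupffer cell marker Clec4f was under 1 CPM in all 6 libraries. Of 9 cholangiocyte markers 1 rose, Spp1, and 1 fell, Cldn4 by 0.44 ± 0.06, while the defining markers Krt19 and Epcam were at -0.14 ± 0.07 and -0.15 ± 0.08 and did not pass. Of 14 portal fibroblast and mesothelial markers 3 fell, Cd34 and Gas6 by 0.42 ± 0.05 and 0.37 ± 0.06 and Krt8 by 0.21 ± 0.06, which did not hold without DMSO replicate 2 or 3 or riociguat replicate 2 or 3 and when the 6 libraries were fitted alone, with the replicate block (adjusted p up to 0.186). Of 6 lymphocyte markers 0 passed in edgeR or DESeq2, and 2 had an unadjusted p under 0.05.

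**Figure D4:**
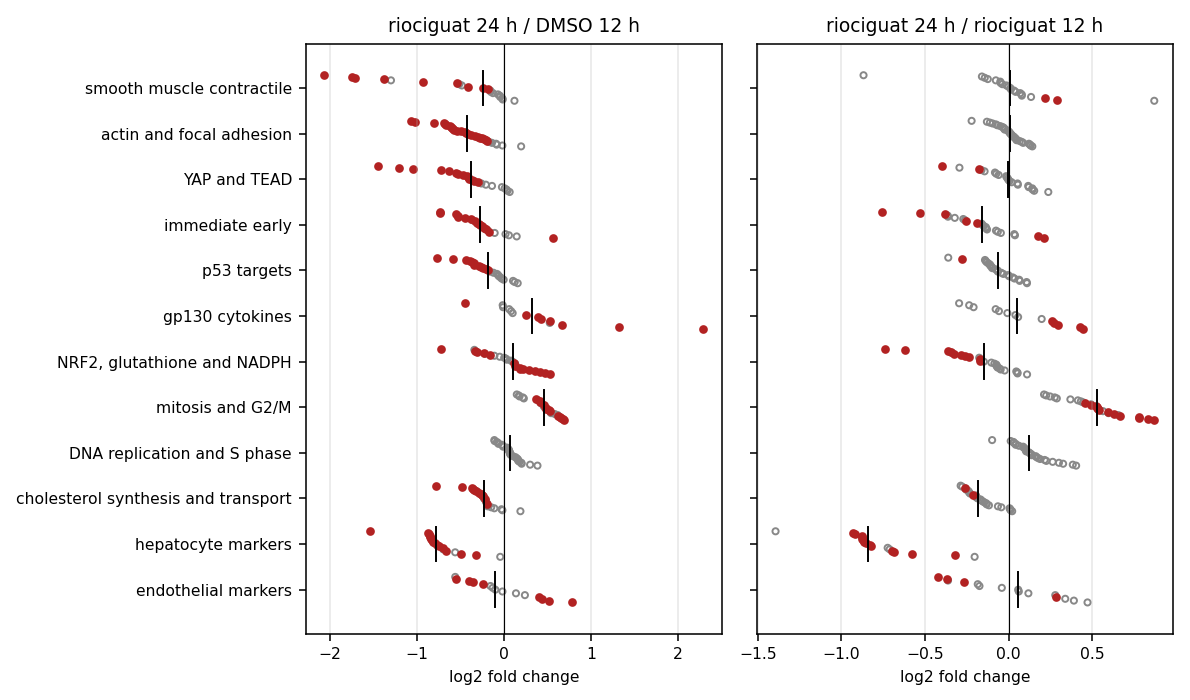
Log2 fold change of each tested member of 12 gene lists for riociguat 24 h over DMSO 12 h (left) and over riociguat 12 h (right), with genes at adjusted p under 0.05 in filled red, others as open circles and a bar at each list's median. Actin genes lie below 0 on the left and around 0 on the right, whereas most hepatocyte markers lie below 0 and most mitosis genes above 0 in both panels.

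Riociguat 24 h was also set against riociguat 12 h, which started 12 h after the medium change like DMSO. This tests whether the difference from DMSO changed with exposure, since the DMSO libraries cancel. In this contrast 494 of 16036 genes were called (3.08%), of which 219 rose (1.37%) and 275 fell (1.71%). Acta2 did not pass, at -0.12 ± 0.09, nor did Tagln, Myl9, Ccn2, Ccn1, Thbs1, Timp3 or Il11, with differences between -0.16 (Tagln) and 0.13 (Thbs1) on the log2 scale. In the actin list 0 genes passed in the main edgeR fit and 7 had an unadjusted p under 0.05, with a list median of 0.01. Under 4 of the alternatives, DESeq2 among them, 1 gene fell, and 0 did whichever library was left out. A value that misses the threshold does not show that the levels were alike.

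Other genes went further from 12 h to 24 h. Col12a1 was at 260.0, 253 and 274 CPM after 12 h, and its difference was -1.02 ± 0.05 (edgeR adjusted p = 2.41e-09). Spp1 was at 363, 414 and 380.0 CPM after 12 h, with a difference of 0.92 ± 0.06 (edgeR adjusted p = 4.97e-08). Prl2c2, a placental prolactin relative also called proliferin (ENSMUSG00000079092, chromosome 13, 12996125 to 13005383, minus strand), was at 63.7, 62.2 and 67.1 CPM after 12 h and 162, 144 and 161 CPM after 24 h, against 52.5, 47.1 and 49.4 CPM in DMSO, and rose over DMSO by 1.65 ± 0.07. Its near-identical copies make its level uncertain. In each of these the 24 h libraries stood outside both other groups. The differences were 1.19 ± 0.09 for Il1rl1, 0.94 ± 0.09 for Gdf10, -0.86 ± 0.11 for Ccn4, -0.64 ± 0.07 for Col1a1, 0.51 ± 0.07 for Timp1 and -0.53 ± 0.05 for Egr1.

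Bmp10 went back towards DMSO: its log2 difference from DMSO was -1.95 at 12 h and -1.19 at 24 h, and the change between them was 0.76 ± 0.09 (edgeR adjusted p = 0.000118). Cyp1a1 had values of 1.58, 0.94 and 0.69 at 6, 12 and 24 h, and the last step of -0.25 ± 0.05 did not hold without riociguat 12 h replicate 1 or 3 or riociguat 24 h replicate 1 or 2 (adjusted p up to 0.0884). The 3 exposure times share the DMSO libraries, so their values are not independent of each other. Against those libraries 9.72% of genes were called at 6 h (4.48% risen, 5.24% fallen) and 5.66% at 12 h (2.18% risen, 3.48% fallen).

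By group, 14 of 27 mitosis genes were higher at 24 h than at 12 h, with a median difference of 0.53, and the number was 8 to 9 without riociguat 24 h replicate 1 or riociguat 12 h replicate 1 or 2. Mki67 differed by 0.59 ± 0.08 (edgeR adjusted p = 0.000326). Of the 18 hepatocyte markers 14 were lower at 24 h than at 12 h, with a median of -0.84 and a sum of 1749 to 2124 CPM after 12 h. The albumin level after 12 h was 783, 937 and 761 CPM, a range that overlaps that in DMSO. Of 14 gp130 genes 5 were higher, among them Osmr by 0.45 ± 0.06 and Socs3 by 0.43 ± 0.06. Of 27 NRF2 genes 10 were lower and of 19 heme and iron genes 6, including Hmox1 at -0.34 ± 0.05 (edgeR adjusted p = 0.000295). Hpx and Trf are among these 6, and they moved with the hepatocyte markers.

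**Figure D5:**
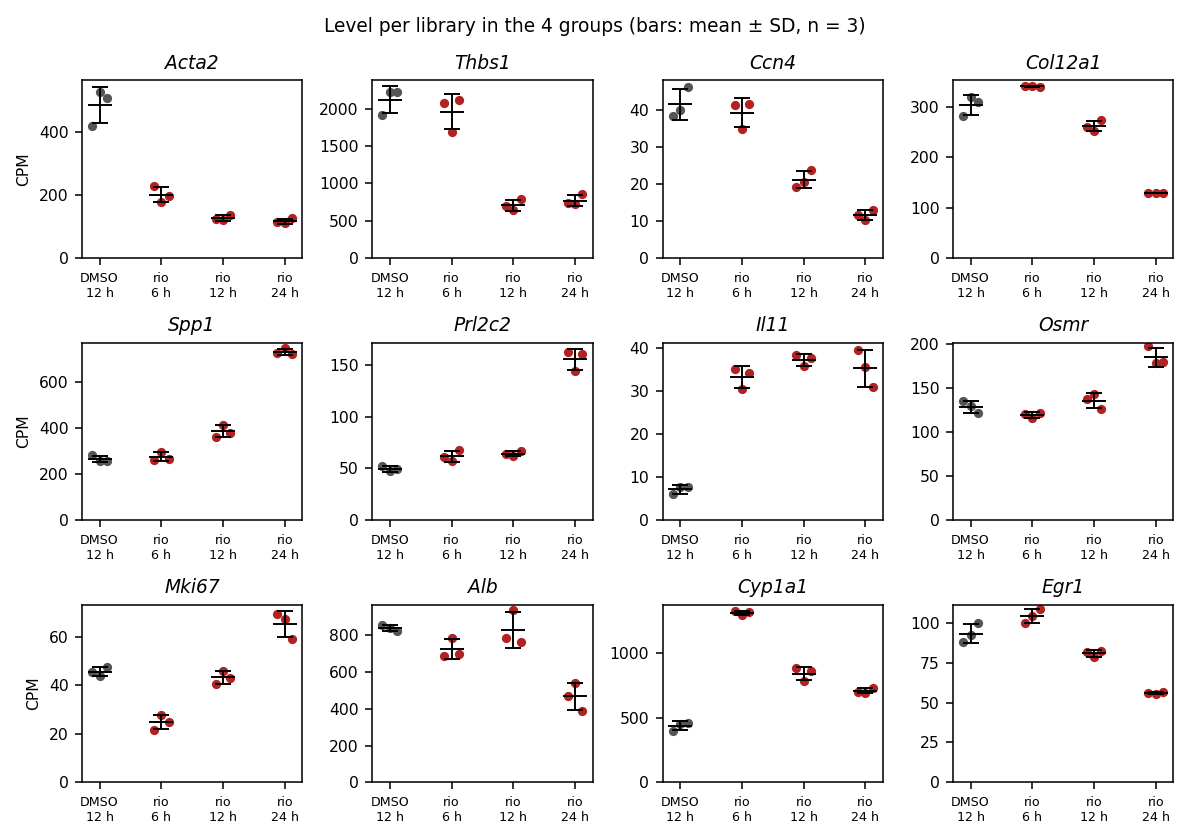
CPM in each library of the 4 groups for 12 genes, with points for libraries (grey DMSO, red riociguat) and bars for the mean ± SD of 3 libraries. Acta2 was lowest at 12 h and 24 h, Col12a1, Ccn4 and Egr1 were lowest at 24 h, Spp1, Prl2c2, Osmr and Mki67 were highest at 24 h, Il11 was raised at every exposure, and Alb was lower at 24 h than in the other 3 groups.

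The remaining leading genes belong to none of the groups above or stand apart within them. Ackr1, a scavenger of chemokines, went from 2.25, 1.56 and 2.52 CPM in DMSO to 7.25, 8.60 and 6.38 CPM with riociguat and rose by 1.81 ± 0.23, and Stc1, the secreted hormone stanniocalcin, from 3.97, 3.33 and 3.44 CPM in DMSO to 12.2, 10.7 and 9.64 CPM with riociguat, with a rise of 1.60 ± 0.22. Potassium channel genes were among them: Kcnj8, a pore subunit of vascular ATP-sensitive channels, went from 16.3, 18.4 and 15.5 CPM in DMSO to 43.0, 43.9 and 36.9 CPM with riociguat and rose by 1.30 ± 0.11, and Kcnj6, a G-protein-gated channel, rose by 1.24 ± 0.26. Tacr3, a tachykinin receptor, Rasl11a, a small GTPase, Disp2, a Dispatched family membrane protein, and Iigp1, an interferon-inducible GTPase, rose by 1.33 ± 0.19, 1.40 ± 0.14, 1.19 ± 0.07 and 1.55 ± 0.17. The zinc finger genes Zfp970 and Zfp973, which have close relatives that can share reads, rose by 1.42 ± 0.15 and 1.21 ± 0.26.

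On the falling side, Akap12, a scaffold of protein kinases A and C, went from 288, 351 and 347 CPM in DMSO to 127, 117 and 142 CPM with riociguat and fell by 1.35 ± 0.09 on the log2 scale (SE; edgeR adjusted p = 1.59e-08). Mgll, monoacylglycerol lipase, fell by 1.25 ± 0.10, Prss23, a secreted serine protease, by 1.17 ± 0.06 and Tnnt2, cardiac troponin T, by 1.42 ± 0.19. Nrep, a regulator of myofibroblast differentiation, fell by 1.42 ± 0.12 and the leukocyte integrin chain gene Itgb7 by 1.29 ± 0.30. Ftl1-ps1, a ferritin light chain copy whose reads cannot be told from those of Ftl1 with certainty, fell by 1.33 ± 0.28.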

How the data were processed

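Selection of RNA, strand handling and the annotation used are not stated in the labels. The values are expected counts of genes as the authors deposited them. Per the submitters' processing notes FastQC, fastp, Salmon, DESeq2 and build GRCm38 were used, with no role or version. Salmon shares reads among similar transcripts, so near-identical genes are uncertain. A symbol was found for 53355 of its 53452 genes, and positions are those of GENCODE for GRCm38.

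Counts were rounded, which changed 0 values, filtered (filterByExpr, 16036 genes kept), scaled with TMM factors and tested in R 4.3.3 by edgeR 4.0.16 (glmQLFit, glmQLFTest, two-sided) in 1 fit of all 12 libraries with group as the only term. The biological coefficient of variation was 0.0798, with 8 residual and 8.80 prior degrees of freedom. The steps were tested on simulated data. No pair of libraries in a group was alike within sampling noise.

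The comparison and its 49 gene lists (1074 entries) were chosen with earlier results of these data known. Named genes are the 20 risen and 20 fallen with the largest change (adjusted p under 0.05, groups apart, at least 5 CPM as the mean of the higher group, no clone name), 51 fixed genes, the 6 members of each list with the smallest p and all members of the contractile, cGMP and stellate identity lists. Other genes are named without values, for list counts or promoters, after their values were seen, and some genes that the rule names are not reported here. Alternatives were RLE factors, no filter, DESeq2 1.42.0, a fit of only the 6 libraries, a replicate block and each library left out.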

Additional observations from a re-analysis of the deposited data

Results flagged for a closer look

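For 32 of the 78 leading and fixed genes, the difference between riociguat 24 h and riociguat 12 h passed the test, so that the departure from DMSO was not the same at both exposures (edgeR, adjusted over 16036 genes). Over all genes tested the share was 3.08% (494 of 16036). The leading genes were chosen for a large change in the same riociguat 24 h libraries that this difference uses. Their count is therefore no measure of how common such differences are. Values are log2 differences, 24 h minus 12 h. Among risen secreted and matrix genes they were 0.92 for Spp1, 0.94 for Gdf10, 1.28 for Prl2c2, 0.51 for Timp1, 0.41 for Hgf, 0.24 for Col3a1, 0.48 for Cck, 0.84 for Grem1, 0.83 for Stc1 and 1.38 for Ccl6. For other risen genes they were 1.19 for Il1rl1, 1.19 for Ackr1, 0.85 for Ntm, 0.52 for Kcnj8, 0.91 for Rasl11a, 0.38 for Disp2, 0.74 for Zfp970, 0.78 for Iigp1 and 0.59 for Mki67. Mki67 had a difference from DMSO of -0.08 at 12 h and 0.52 at 24 h, with opposite signs, although the former did not pass the test (edgeR adjusted p = 0.717).

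Fallen genes that lay lower at 24 h than at 12 h were Col12a1 (-1.02), Col1a1 (-0.64), Ccn4 (-0.86), Nrep (-1.01), Tnnt2 (-0.83) and Egr1 (-0.53), and with them Agt (-1.10) and Cyp2d10 (-1.16), which moved with the hepatocyte markers. Genes nearer to DMSO at 24 h were Bmp10 (0.76), Tnc (0.30), Ccnd1 (0.35) and Cyp1a1 (-0.25). Hmox1 differed by -0.34, from 0.20 at 12 h to -0.15 at 24 h against DMSO, with opposite signs. Of the 32 differences 22 passed under every alternative. The 10 that did not were those of Cck, Col3a1, Cyp1a1, Cyp2d10, Grem1, Iigp1, Stc1, Tnc, Tnnt2 and Zfp970, each lost when at least 1 library was left out, with adjusted p up to 0.165 (Stc1). The groups of 3 were not searched for single outlying libraries.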

How the results depend on the processing

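No fold change of a named gene that was called changed sign under the alternatives tried, but the balance of rises and falls over all genes did. Against DMSO, the 2141 called genes (952 risen, 1189 fallen) became 2156 with RLE factors, 2349 in DESeq2, in which 2179 genes had no adjusted p, 2560 without a low-count filter and 1732 when the 6 libraries were fitted alone. With 1 library left out the total ranged from 1395 to 2566, the risen from 598 to 1308 and the fallen from 775 to 1258, and 1090 genes were called in the same direction under every alternative. Rises outnumbered falls without a filter (1352 and 1208) and without DMSO replicate 1 (1308 and 1258), which stood apart from the other DMSO libraries. Against riociguat 12 h, the 494 called genes (219 risen, 275 fallen) became 838 (373 and 465) without a filter and 676 in DESeq2 (321 and 355). With 1 library left out the total ranged from 318 to 432, the risen from 143 to 187 and the fallen from 172 to 245. The cause of these shifts was not tested.

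Whether replicate numbers pair the samples cannot be told from these values. Same-numbered libraries of both groups deviated together with correlations of 0.084, 0.048 and 0.046, which are small, although each correlated best with its own number. The other pairs gave -0.066 to 0.023. With the replicate block 1944 genes were called (858 risen and 1086 fallen), and 443 against riociguat 12 h. Of the 4109 values of named genes under alternatives against DMSO, 159 lost a call and 43 gained one. The other 3907 had the same outcome as in the main fit, and these include genes called in neither. Of 98 counts of list members against DMSO, 36 moved by over 1.5 times under some alternative, 14 of them counts of at least 3. The median of all genes stayed within 0.01 of 0 under every scaling. Depth limits genes near 1 CPM such as Gfap, Cnn1 and the lymphocyte markers, none of which was called. A difference in them could have been missed.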

Other observations

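Counts on the growth factor, Wnt and Notch and imprinted gene lists stand beside 5.94% risen and 7.41% fallen over all genes tested. Some of them lie near these shares. Of 32 PDGF, IGF, FGF and VEGF genes 2 rose and 9 fell, and 4 to 5 fell without DMSO replicate 2 or 3 or riociguat replicate 1 or 3. Pdgfb, the ligand of the PDGF receptor beta, fell by 0.50 ± 0.09, the receptor genes Igf1r and Fgfr1 fell by 0.38 ± 0.07 and 0.34 ± 0.05, and Vegfa rose by 0.26 ± 0.04. Igfbp4 and Igfbp7, binders of insulin-like growth factors, fell by 0.23 ± 0.06, which did not hold without DMSO replicate 2 or 3 or riociguat replicate 1 (adjusted p up to 0.0792), and by 0.30 ± 0.07, which did not hold without DMSO replicate 3 or riociguat replicate 1 (adjusted p up to 0.0835). Of 30 Wnt and Notch genes 7 rose and 4 fell, and 2 fell without DMSO replicate 2 or riociguat replicate 1. Rspo3 and Wnt2, which liver endothelial and stellate cells supply to hepatocytes, rose by 0.49 ± 0.05 and 0.54 ± 0.11, and the receptor genes Fzd1 and Notch2 by 0.31 ± 0.07 and 0.20 ± 0.04. The Notch ligand gene Jag1 and the endothelial receptor gene Notch4 fell by 0.43 ± 0.06 and 0.50 ± 0.08. Among 18 imprinted growth genes 3 rose and 1 fell. Nap1l5 went from 8.13, 6.11 and 4.79 CPM in DMSO to 18.8, 21.5 and 17.6 CPM with riociguat and rose by 1.60 ± 0.15, Peg10 fell by 0.62 ± 0.10 and Impact rose by 0.22 ± 0.05. Kcnq1ot1, an antisense RNA that cannot be told from its host gene without strand, rose by 0.54 ± 0.15, which did not hold without DMSO replicate 2 or riociguat replicate 2 or 3 (adjusted p up to 0.119).

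Counts on the stress and metabolic lists stand beside 5.94% risen and 7.41% fallen over all genes tested, and several lie near these shares. Of 26 genes of the unfolded protein and amino acid response 7 rose and 2 fell: the chaperone gene Hsp90b1 rose by 0.26 ± 0.04, the asparagine synthetase gene Asns by 0.25 ± 0.04, Xbp1 by 0.19 ± 0.04 and Ddit4, an mTOR inhibitor, by 0.46 ± 0.07, while Ddit3 (CHOP) and Sesn2 fell by 0.37 ± 0.08 and 0.29 ± 0.05. Of 27 glycolysis and hypoxia genes 2 rose and 5 fell, and 2 to 3 fell without DMSO replicate 2 or 3 or riociguat replicate 1 or 3. Ldha rose by 0.21 ± 0.04, and Epas1 (HIF-2 alpha) and the oxygen sensor gene Egln1 fell by 0.32 ± 0.05 and 0.36 ± 0.06. Of 26 respiratory chain genes 3 rose, a count that was 0 without riociguat replicate 3. Of 10 further Kruppel-like factor genes 2 fell, 0 without riociguat replicate 1 or 3. This list leaves out the members counted as immediate early genes, among them Klf2, Klf4 and Klf6, which fell. Of 18 circadian clock genes 1 rose and 2 fell, with Nr1d1 lower by 0.33 ± 0.06. Of 12 dissociation and stress genes 2 rose and 1 fell. Hspa1a, an inducible chaperone, fell by 0.25 ± 0.06, which did not hold without DMSO replicate 3 or riociguat replicate 3 (adjusted p up to 0.092), and Dnaja1 rose by 0.30 ± 0.05.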
